A study of Mus musculus with 10 samples.

Results

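Dicer1 knockout libraries of OP9 cells, mouse marrow stromal cells that become adipocytes under a suitable stimulus, were compared with the empty vector libraries of the same batch. The comparison takes 4 of the 10 libraries of the series, all those labelled batch 1. The knockout cells are labelled Dicer1 KO (2 libraries, replicates 1 and 2), and the control cells carry an empty vector and a wild-type genotype label (2 libraries, replicates 1 and 2). All 4 received 1 µM rosiglitazone, a drug that activates the nuclear receptor PPARγ, from confluence until harvest at day 10. The series title concerns Drosha and adipogenesis, and the labels give no separate purpose for the Dicer1 libraries. They also do not say which exon was altered, whether the knockout line is a clone or a pool, or whether replicates were separate cultures, so the spread behind each p-value is that of library pairs and may be technical. Below, KO 1, KO 2, EV 1 and EV 2 name the libraries by these labels, in that order.

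Dicer1 encodes the cytoplasmic ribonuclease that trims microRNA hairpins into short duplexes, of which one strand enters an Argonaute protein. The loaded strand pairs through its seed with matching letters in 3′ UTRs, and the bound mRNA is then destabilised or translated less. Upstream, Drosha and its partner Dgcr8 release the hairpins in the nucleus. Loss of Dicer1 in mouse fat cell precursors is known to impair fat cell formation, and loss of Dicer1 in cultured fibroblasts is known to slow their proliferation.

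Expression was deposited as TPM, the estimated reads of a transcript per length, scaled to the same total in each library. Depth is therefore unknown, and no counting interval can be given. Of 32931 named genes, 12239 reached 1 TPM in at least 2 of the 4 libraries and were tested as log2(TPM + 1) with limma, two-sided, with Benjamini-Hochberg adjustment. All changes below are log2 fold changes of Dicer1 KO over empty vector on that scale, given ± SE, and they understate the change of low genes. Genes with an adjusted p below 0.05 are said to be called. A gene below 1 TPM in both libraries of a group passed the filter only through the other group. Such a gene could differ in only 1 direction, yet it counts in its list and median. Those named below include Adipoq, Plin1, Gpd1, Hspa1a, Mcam, Sfrp4, Nid2 and Ltc4s (through EV) and Cstdc4 (through KO). Across tested genes, the KO libraries correlated at 0.982 and differed by a median of 0.118 on the log2 scale, and the EV libraries correlated at 0.972 and differed by 0.218. Between groups the correlation lay between 0.927 and 0.940. A row named Mir6236 was the most abundant of every library, with 23044 and 25863 TPM in KO and 39441 and 47616 TPM in EV (-0.83 ± 0.17). Despite its name, this row is not read as a microRNA level, because mature microRNAs were not measured. The row of 18S ribosomal RNA, Rn18s, was also lower in KO. It had 2411 and 2750 TPM in KO and 3733 and 3858 TPM in EV (-0.56 ± 0.11). Whether the Mir6236 and Rn18s rows share a source was not tested, nor was the part of Mir6236 in the other values.

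Limma called 2627 genes higher in Dicer1 KO (21.5% of those tested) and 1175 lower (9.6%), 31.1% in either direction. The median change of all genes was 0.15, and it was 0.01 after median-ratio scaling, an offset that shifts the split. With scaling, 1583 genes were higher (12.9%) and 1580 lower (12.9%), 25.8% in either direction, so 50.05% of calls were higher, against 69.1% as deposited. The shares of tested genes, 21.5% and 9.6% as deposited and 12.9% each with scaling, are the background for every list count below. All 1583 were among the 2627, and 1165 of the 1175 were also lower with scaling. Among called genes, 539 rose and 597 fell by at least 1 on the log2 scale, 62 rose and 133 fell by at least 2, and 13 rose and 33 fell by at least 3. The groups did not overlap for 45.9% of tested genes with KO above EV and for 24.2% with KO below. Separate groups are thus common, and where stated below for single genes they only describe the values. Without KO 1 or without KO 2, limma called 0 genes in either direction, while 2925 and 3129 genes had an unadjusted p under 0.05. This holds for every gene and every list named below.

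**Figure D1:**
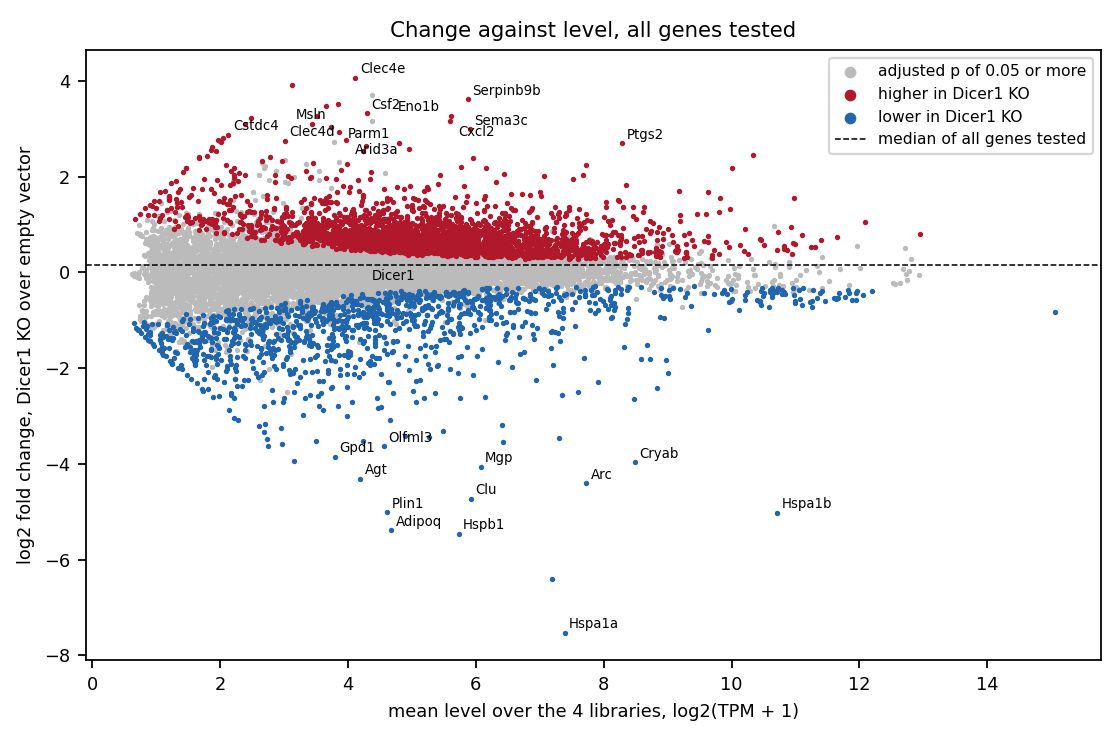
Each point is a tested gene, with its mean level over the 4 libraries on the x axis (log2(TPM + 1)) and its log2 fold change, Dicer1 KO over empty vector, on the y axis. Red genes were called higher and blue genes lower at an adjusted p under 0.05, and the dashed line is the median of all genes, 0.15. Falls reach further than rises: Hspa1a lies at -7.52, and the named gene with the largest rise, Clec4e, at 4.07.

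The targeted gene did not separate the groups. Dicer1 stood at 19.3 and 14.9 TPM in KO and at 23.8 and 17.3 TPM in EV. The 2 groups overlapped, and the change of -0.25 ± 0.21 did not pass (limma adjusted p = 0.407). A gene-level TPM does not show a small insertion or deletion in the coding sequence, so it checks neither the edit nor the labels, and Dicer1 KO stands below for the libraries so labelled. Drosha (28.0 and 30.2 TPM in KO, 28.6 and 22.3 TPM in EV, adjusted p = 0.383) and Dgcr8 (32.5 and 24.8 TPM in KO, 32.4 and 18.7 TPM in EV, adjusted p = 0.624) did not pass either. Smc4, the condensin gene whose intron holds miR-15b, fell to 22.5 and 27.4 TPM in KO, against 52.5 and 36.4 TPM in EV (-0.79 ± 0.20, adjusted p = 0.038). The Smc4 call was lost without EV 1. Trpm3, the host of miR-204, was below 1 TPM in all 4 libraries, with 0.266 and 0.465 TPM in KO and 0.278 and 0.296 TPM in EV, and was not tested.

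The microRNAs themselves were not measured, because the libraries were made from captured mRNA. The rows of Mir204, Mir15b, Mir16-1, Mir17, Mir322 and Mir21a were listed at 0 in all 4 libraries. Those of Mir29a, Mir351 and Mir503 had 3.72, 18.9 and 12.5 TPM in EV 1 and were listed at 0 in KO 1, KO 2 and EV 2. The RefSeq mature sequences of the families whose published targets are followed below are given 5′ to 3′, with the seed (bases 2 to 8) in capitals, because the seed defines which mRNA letters can pair. The members of the let-7 family share 1 seed, as do those of the miR-15/16 family, to which miR-322 belongs.
let-7a-5p: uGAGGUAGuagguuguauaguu
let-7c-5p: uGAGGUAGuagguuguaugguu
let-7i-5p: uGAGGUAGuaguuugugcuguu
miR-15b-5p: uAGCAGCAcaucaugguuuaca
miR-16-5p: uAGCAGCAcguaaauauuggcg
miR-322-5p: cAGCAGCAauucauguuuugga
miR-204-5p: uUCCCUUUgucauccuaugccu
miR-29a-3p: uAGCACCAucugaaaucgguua
miR-17-5p: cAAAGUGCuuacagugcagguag

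Of the 43 lists, published let-7 targets had the highest median change, with miR-15/16 targets next (medians 0.70 and 0.69). Among groups described last, put together after the values were seen, NRF2, NF-κB and senescence genes had higher medians (0.79, 0.76 and 1.245). The remaining groups of that part had lower ones. Of 21 tested let-7 targets of 24 listed, 11 rose and 0 fell (median 0.70, against 0.15 for all genes). With median-ratio scaling, 11 rose and 0 fell (median 0.54). Arid3a, which encodes a DNA-binding protein, stood at 27.1 and 25.6 TPM in KO and at 2.84 and 3.21 TPM in EV. The KO libraries were thus well above both EV libraries (2.76 ± 0.16, limma adjusted p = 0.00204). Hmga2, a chromatin gene that let-7 is known to hold down in adult cells, stood at 584.0 and 553.2 TPM in KO and at 230.5 and 211.8 TPM in EV (1.36 ± 0.09, adjusted p = 0.00232). The nuclear receptor gene Nr6a1 (7.60 and 7.79 TPM in KO, 3.17 and 2.30 TPM in EV) and the TGF-β receptor gene Tgfbr1 (51.7 and 50.2 TPM in KO, 20.0 and 24.0 TPM in EV) also rose, by 1.23 ± 0.22 and 1.18 ± 0.13. The growth regulator Myc rose to 207.2 and 195.4 TPM in KO, against 126.8 and 120.9 TPM in EV. Other members gave values close together: Igf2bp1 had 19.7 and 20.0 TPM in KO and 17.6 and 17.2 TPM in EV, and Hmga1 had 1344 and 1244 TPM in KO and 1286 and 1387 TPM in EV, and neither passed. Lin28b, Trim71 and Mycn were below 0.1 TPM in every library and were not tested.

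The let-7 seed matches of Arid3a, Hmga2 and Tgfbr1, which are among the 4 largest rises of the list, are shown. They let the pairing letters be read against the seed above. Each line gives the first match in the longest annotated 3′ UTR (GENCODE, GRCm38), with the 7 letters that pair to the seed in capitals.
Arid3a, chr10:79953910-79953916, plus strand: caagtttctttCTACCTCaggtcttttgat
Hmga2, chr10:120364225-120364231, minus strand: acattcaatttCTACCTCagcatcagttgg
Tgfbr1, chr4:47410843-47410849, plus strand: ggctggttgttCTACCTCactgagagaaca
Hmga2 held 4 such matches in 3014 bases of UTR, Arid3a 2 in 3082 bases and Tgfbr1 1 in 4154 bases. Of the 21 tested members, 18 held a match, as did 10 of the 11 that rose. Myc, which rose, held none. A match is a run of letters and was not measured as a site.

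Published targets of the miR-15/16 family also included many called genes. Of 19 tested, 10 rose and 1 fell (median 0.69), and 9 rose and 1 fell with scaling (median 0.54). Map2k1, which encodes the kinase MEK1, stood at 218.8 and 192.9 TPM in KO and at 87.6 and 110.1 TPM in EV (1.06 ± 0.14, limma adjusted p = 0.00801). Rictor, a scaffold of the kinase complex mTORC2, stood at 16.8 and 16.7 TPM in KO and at 7.43 and 8.32 TPM in EV (1.00 ± 0.15). Vegfa, a vessel growth factor that is also induced by hypoxia, stood at 614.2 and 608.6 TPM in KO and at 308.8 and 327.2 TPM in EV (0.94 ± 0.08). No library of one group reached the range of the other for these 3 genes, as for 45.9% of all tested genes with KO above EV. The G1 kinase gene Cdk6 (0.92 ± 0.14) and the cyclin gene Ccnd3 (0.77 ± 0.12) rose, whereas the cyclin gene Ccne1 fell to 8.79 and 10.6 TPM in KO, against 20.5 and 19.3 TPM in EV (-0.97 ± 0.16). Ccnd1 overlapped between the groups, with 129.3 and 146.3 TPM in KO and 152.5 and 101.8 TPM in EV. All 19 members hold a match to the seed in the longest UTR, and those of the 3 largest rises with 1 match each are the following.
Map2k1, chr9:64186232-64186238, minus strand: aaagcatgcttTGCTGCTactgaaatgagc
Rictor, chr15:6797819-6797825, plus strand: gggctctaagcTGCTGCTcacattacagca
Vegfa, chr17:46018591-46018597, minus strand: tttcttatatcTGCTGCTaaatcgccaagc

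For published miR-204 targets, 7 of 18 tested members rose and 1 fell (median 0.30), and 3 rose and 2 fell with scaling (median 0.15). Sox4, a transcription factor gene of progenitor cells, stood at 140.4 and 128.5 TPM in KO and at 45.0 and 64.9 TPM in EV (1.30 ± 0.18, limma adjusted p = 0.009). The homeobox gene Meis1 stood at 28.5 and 30.4 TPM in KO and at 15.5 and 15.6 TPM in EV (0.88 ± 0.12). Runx2, the osteoblast regulator often named as a miR-204 target, was at 19.4 and 17.2 TPM in KO and at 16.7 and 18.1 TPM in EV and did not pass. Efnb2, a membrane ligand gene, was the member that fell (-0.83 ± 0.20), a call lost without EV 2. Only 12 of the 18 members held a seed match in the longest UTR, and only 4 of the 7 that rose. Dvl3, which rose, held none. The seed matches of the 2 largest rises are given for comparison with the let-7 and miR-15/16 matches above.
Sox4, chr13:28949587-28949593, minus strand: attcacagcaaAAAGGGAttctgtagcttt
Meis1, chr11:18883400-18883406, minus strand: tggcaatggaaAAAGGGAgaatacaaaata

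Published miR-17 family targets gave 11 higher and 0 lower of 20 tested (median 0.49), and 7 higher and 0 lower with scaling (median 0.35). Bmpr2, a BMP receptor gene, stood at 37.3 and 35.4 TPM in KO and at 16.6 and 19.4 TPM in EV (0.98 ± 0.13). The kinase gene Map3k2 (0.93 ± 0.14), the transcriptional repressor gene Zbtb4 (0.72 ± 0.16, not called with scaling) and E2f3 (0.69 ± 0.13) rose. Published miR-29 targets split: 9 rose and 4 fell of 19 (median 0.43), and 5 rose and 4 fell with scaling (median 0.28). The DNA repair and demethylation genes Tdg (88.0 and 87.8 TPM in KO, 46.7 and 41.3 TPM in EV) and Tet3 (18.8 and 17.0 TPM in KO, 9.28 and 8.73 TPM in EV) rose, by 0.98 ± 0.10 and 0.92 ± 0.15. The 4 that fell were all collagen genes, led by Col1a2 and Col3a1, and are described with the matrix. A seed match in the longest UTR was held by 17 of the 19 members, and Col1a2 held none.

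**Figure D2:**
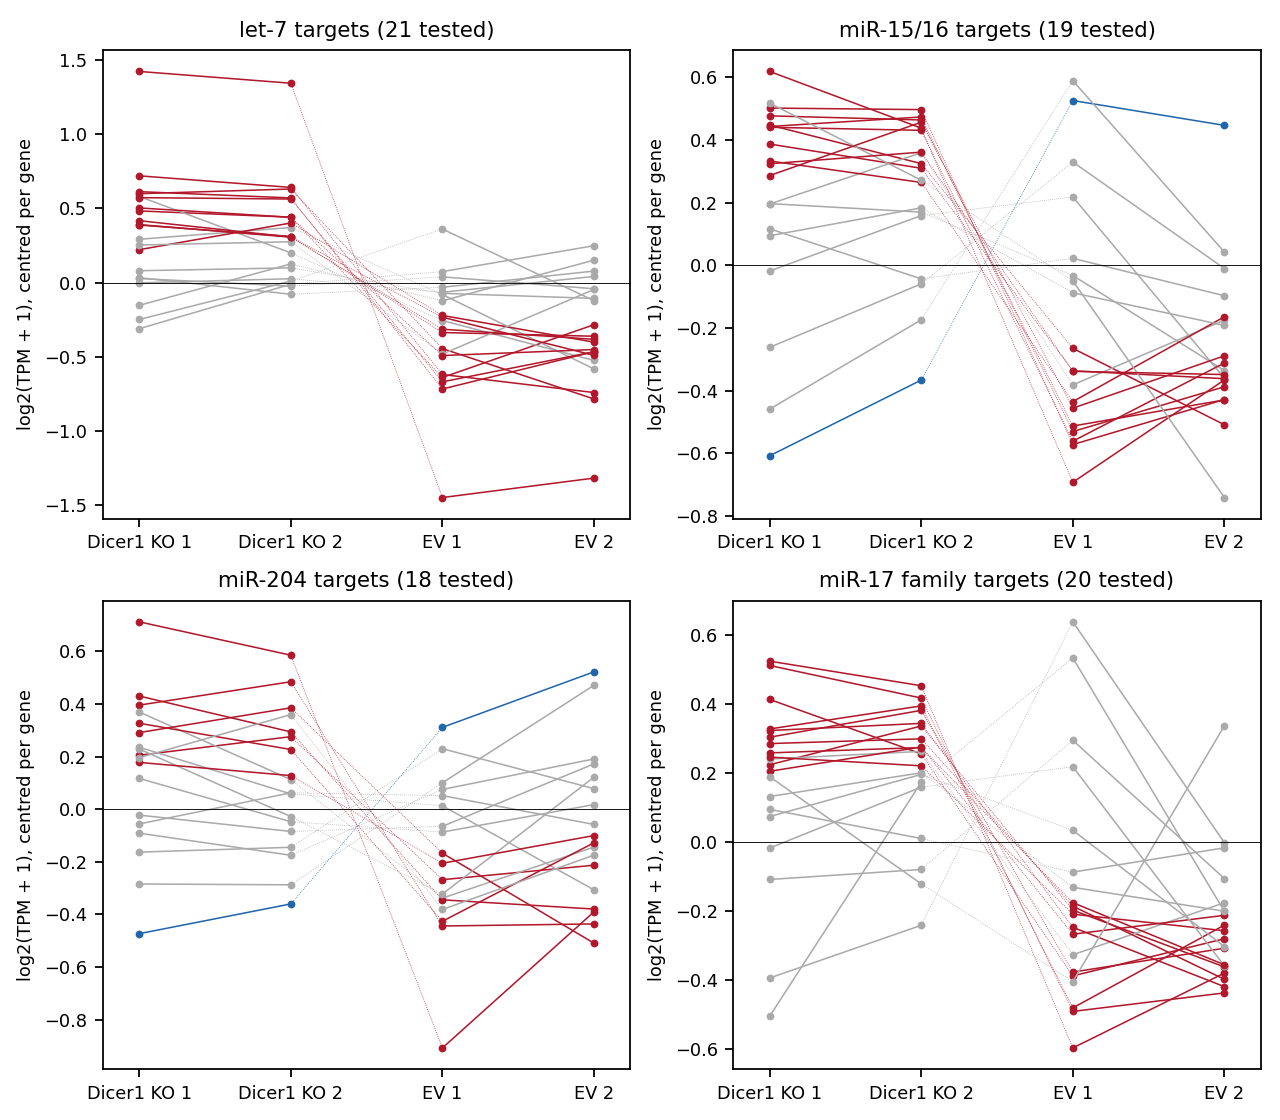
Each line is a tested member of a published target list, with its log2(TPM + 1) centred on its own mean (y axis) in the 4 libraries (x axis, Dicer1 KO left of empty vector). Red members were called higher in KO, blue lower and grey neither, and dotted stretches only join the values of a gene. In the let-7 panel 11 of 21 lines are red and 0 blue, and Arid3a is the line that stands apart; in the miR-15/16 panel 10 are red and 1 blue.

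Across all tested genes with an annotated 3′ UTR (10988, or 89.8%), the share called higher was larger with seed matches and also with UTR length. Of the 144 genes with 2 or more let-7 matches, 34.7% were called higher, of the 995 with 1 match 26.5%, and of the 9849 with none 21.9%. The median UTR lengths of these classes were 3540, 2170 and 1060 bases. When UTRs were split by length into 3 groups of equal size, in the longest group (1826 bases or more), 30.4% of genes with a let-7 match and 30.6% of those without were called higher. In the middle group, the shares were 23.5% of 328 genes with a match and 23.4% of 3334 without. In the shortest group (699 bases or fewer), the shares were 20.4% of 98 genes with a match and 13.2% of 3565 without. For miR-15/16 matches in the longest group, the shares were 32.3% with and 29.2% without. They were 25.3% and 22.9% in the middle group, and 16.5% and 13.2% in the shortest. Over all genes of the shortest, middle and longest groups the shares were 13.4%, 23.4% and 30.6%. For the miR-17 family, the shares with no, 1 and 2 or more matches were 20.8%, 31.4% and 36%. They were 21.1%, 29.5% and 30.7% for miR-29, and 21.5%, 28.2% and 27.1% for miR-204. UTR length grew over these classes too, and these families were not split by length. All shares are of calls as deposited.

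Several genes that act downstream of Dicer1 in silencing rose. Of 19 tested silencing effectors, 8 rose and 0 fell (median 0.60), and 4 rose and 0 fell with scaling (median 0.45). Ago2, the slicing Argonaute, stood at 58.5 and 55.7 TPM in KO and at 25.4 and 33.3 TPM in EV (0.95 ± 0.15, limma adjusted p = 0.0117). Pan2, a deadenylase subunit gene (0.79 ± 0.17), and Ddx6, a helicase gene of mRNA decay (0.66 ± 0.09), rose. Zswim8, whose protein marks Argonaute for degradation, rose by 0.74 ± 0.16 as deposited and did not pass with scaling. Ago1 was at 3.20 and 2.66 TPM in KO and at 1.91 and 1.27 TPM in EV and did not pass. Of 16 tested genes of microRNA processing, 5 rose and 1 fell (median 0.19), and 3 rose and 1 fell with scaling (median 0.04). The shares over all genes were 21.5% higher and 9.6% lower, and 12.9% each with scaling. The helicase gene Ddx17, which works with Drosha, stood at 224.8 and 230.0 TPM in KO and at 150.0 and 126.3 TPM in EV (0.72 ± 0.11). Tarbp2, the partner of the Dicer1 protein, stood at 42.5 and 38.5 TPM in KO and at 25.8 and 23.1 TPM in EV (0.71 ± 0.12), and the uridylating enzyme gene Tut7 rose by 0.54 ± 0.09. Adar, an RNA-editing enzyme gene, rose by 0.66 ± 0.17 as deposited only.

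Limma called 0 of 4 tested noncoding host transcripts of microRNAs as deposited and with scaling, 1 higher without EV 1 and 2 lower without EV 2. Mir100hg (63.5 and 62.7 TPM in KO, 82.7 and 48.4 TPM in EV) and Mir22hg (41.9 and 46.7 TPM in KO, 36.5 and 32.9 TPM in EV) were the most abundant. Of 26 coding hosts of microRNAs, 6 rose and 3 fell (median 0.03), near the shares of all genes (21.5% higher and 9.6% lower). With scaling, 5 rose and 4 fell, against 12.9% of all genes higher and 12.9% lower. Copz2, a coat protein gene that holds miR-152, fell to 49.2 and 49.0 TPM in KO, against 98.4 and 100.5 TPM in EV (limma adjusted p = 0.00438). Wdr82, the host of let-7g (0.83 ± 0.16, not called with scaling), and the arrestin gene Arrb1, the host of miR-326 (0.64 ± 0.12), rose.

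The 12 largest rises, among called genes with separate groups and a mean of at least 5 TPM in KO, included immune-type receptors, secreted factors and protease inhibitors. Clec4e, which encodes the pattern receptor Mincle, stood at 31.4 and 32.1 TPM in KO and at 1.02 and 0.885 TPM in EV (4.07 ± 0.17, limma adjusted p = 0.00171). The related receptor gene Clec4d was at 12.7 and 13.2 TPM in KO and at 1.59 and 0.660 TPM in EV (2.75 ± 0.28). Serpinb9b, a protease inhibitor gene of a family with near-identical copies, was at 99.5 and 115.8 TPM in KO and at 8.27 and 7.42 TPM in EV (3.62 ± 0.13). In each of these genes both KO libraries exceeded both EV libraries several times over. Eno1b, a close copy of the glycolytic gene Eno1, had 91.4 and 84.6 TPM in KO and 9.76 and 6.81 TPM in EV (3.28 ± 0.18), and reads of copies may be split between rows. Sema3c, a secreted guidance factor gene, had 100.8 and 110.4 TPM in KO and 13.7 and 11.3 TPM in EV (2.99 ± 0.13). Msln, which encodes the surface protein mesothelin, had 23.6 and 21.3 TPM in KO and 0.750 and 3.70 TPM in EV (3.03 ± 0.47). The others were Parm1 (2.94 ± 0.18), Cstdc4, with 4.98 and 8.49 TPM in KO and 0.0532 and 0 TPM in EV, Arid3a (given above), Csf2, Cxcl2 and Ptgs2. Csf2 and Cxcl2 are described with the cytokines and Ptgs2 with the prostaglandin enzymes.

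**Figure D3:**
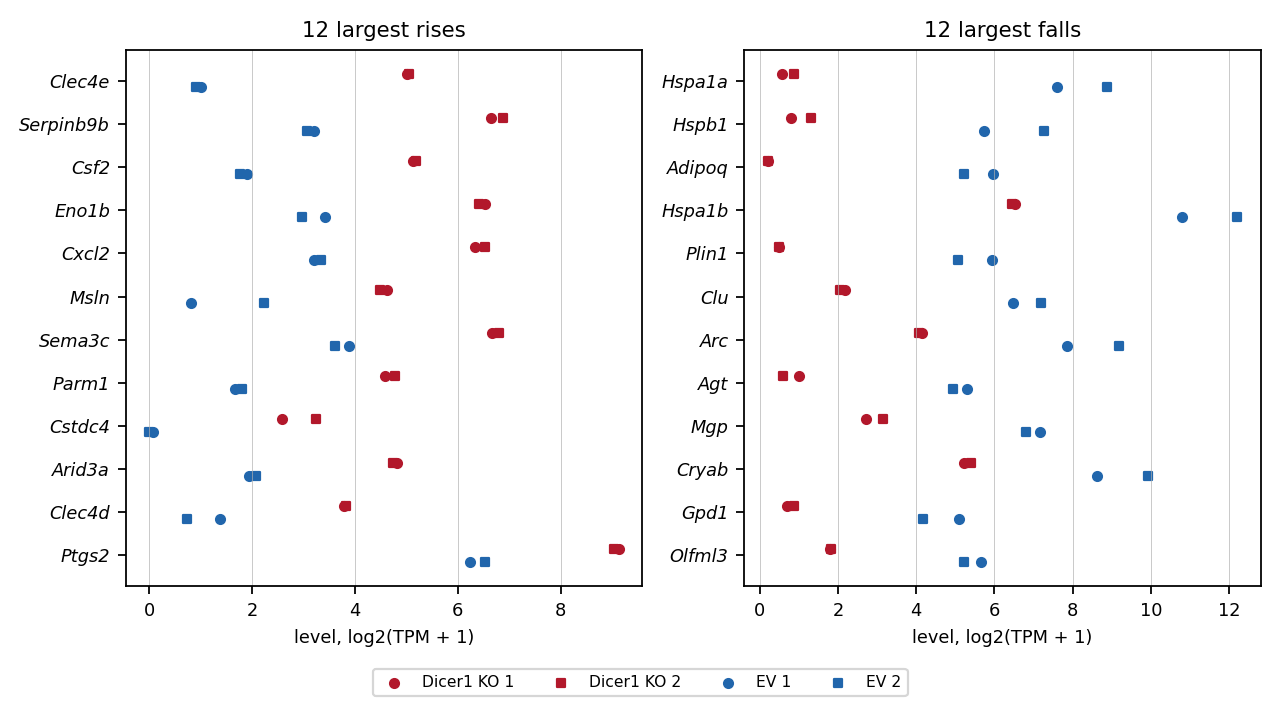
The 12 largest rises (left) and 12 largest falls (right), by library. The x axis is the level as log2(TPM + 1). Red marks are the Dicer1 KO libraries and blue marks the empty vector libraries, with circles for replicate 1 and squares for replicate 2. The KO marks lie close together in nearly every row, while the EV marks of Hspa1a, Hspb1, Hspa1b, Arc and Cryab lie apart, with EV 2 higher.

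Adipocyte genes formed the list with the lowest median. Of 18 tested adipocyte identity genes of 24 listed, 14 fell and 0 rose (median -1.83), and 14 fell and 0 rose with scaling (median -1.99). Adipoq, which encodes the adipokine adiponectin, stood at 0.148 and 0.164 TPM in KO and at 61.6 and 36.4 TPM in EV (-5.39 ± 0.29, limma adjusted p = 0.00174). Plin1, the coat protein of adipocyte lipid droplets, stood at 0.408 and 0.406 TPM in KO and at 60.3 and 32.4 TPM in EV (-5.01 ± 0.32). Agt, the angiotensin precursor gene that fat cells secrete, had 1.01 and 0.512 TPM in KO and 38.3 and 29.5 TPM in EV (-4.31 ± 0.24). These 3 genes were at about 1 TPM or less in KO and far higher in EV. Gpd1, which makes the glycerol backbone of triglycerides, had 0.630 and 0.829 TPM in KO and 33.2 and 17.0 TPM in EV (-3.85 ± 0.34). The fatty acid importer gene Cd36 fell to 2.26 and 1.75 TPM in KO, against 39.0 and 28.5 TPM in EV. The fatty acid carrier Fabp4 fell to 172.1 and 201.1 TPM in KO, against 693.7 and 614.0 TPM in EV (-1.80 ± 0.11). Adig was listed at 0 in both KO libraries, against 5.92 and 3.45 TPM in EV, and Car3 was likewise listed at 0 in KO and called. Adipoq, Plin1, Gpd1, Adig and Car3 passed the filter only through EV, where they are high. For these members only a fall was possible, and they enter the count and the median of the list. In bulk RNA, fewer cells of a type and less RNA per cell cannot be told apart. Retn, Slc2a4, Lep and Adrb3, markers of mature fat cells, were below 1 TPM in all 4 libraries, EV included.

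The transcription factors of the fat cell program moved in both directions or did not pass. Pparg, the main adipogenic transcription factor and the receptor for rosiglitazone, stood at 111.2 and 114.8 TPM in KO and at 120.4 and 123.3 TPM in EV (-0.11 ± 0.08, limma adjusted p = 0.352). Its partner Cebpa fell to 18.0 and 17.6 TPM in KO, against 39.3 and 44.7 TPM in EV (-1.19 ± 0.12). Cebpb, an early regulator, overlapped between groups with 252.6 and 242.0 TPM in KO and 212.5 and 259.3 TPM in EV. Klf5, which acts between the early and late regulators, had 29.7 and 32.5 TPM in KO and 5.92 and 8.99 TPM in EV (1.95 ± 0.21). Klf2, a repressor of Pparg, also rose (1.12 ± 0.20), and the preadipocyte factor gene Zfp423 fell (-1.16 ± 0.24), a call lost without EV 2. In all, 4 of 20 tested members rose and 4 fell (median -0.04), and 3 rose and 4 fell with scaling (median -0.19). For comparison, 21.5% of all genes were called higher and 9.6% lower. Without EV 1 the number that fell was 2.

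Lipid droplet genes diverged within the list. Of 13 tested, 5 fell and 1 rose (median -0.34), as with scaling (median -0.41). G0s2, which encodes an inhibitor of lipolysis, had 6.40 and 7.63 TPM in KO and 101.1 and 60.5 TPM in EV (-3.31 ± 0.26). Cidec, which fuses droplets, fell to 1.67 and 0.844 TPM in KO, against 13.9 and 11.5 TPM in EV, and the lipase gene Lipe fell by 2.13 on the log2 scale, a call lost without EV 1. Plin2, the droplet coat found in most cell types, went the other way, with 848.4 and 768.4 TPM in KO and 288.7 and 424.1 TPM in EV (1.20 ± 0.19, limma adjusted p = 0.0113). Among 20 genes that build fatty acids and triglycerides, 4 fell and 1 rose (median -0.26), and 7 fell and 1 rose with scaling (median -0.41). The desaturase gene Scd1 had 3.37 and 3.58 TPM in KO and 27.4 and 28.8 TPM in EV (-2.70 ± 0.15), whereas the fatty acid synthase gene Fasn was lower in both KO libraries but did not pass, with 17.3 and 17.2 TPM in KO and 26.9 and 19.9 TPM in EV. Malic enzyme (Me1) was the member that rose (0.83 ± 0.08).

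Of 21 fatty acid oxidation genes, 5 fell and 1 rose (median -0.01), and 7 fell and 1 rose with scaling (median -0.16). Acadm, the medium-chain dehydrogenase gene, had 27.9 and 35.4 TPM in KO and 84.9 and 58.8 TPM in EV (-1.15 ± 0.21), and the long-chain dehydrogenase gene Acadl rose (0.46 ± 0.09). Of 23 genes of cholesterol synthesis and uptake, 3 fell and 1 rose (median -0.26), and 6 fell and 0 rose with scaling (median -0.40). Each list of this paragraph stands against 21.5% of all genes called higher and 9.6% called lower as deposited. Idi1, an isoprenoid enzyme gene, had 6.48 and 5.10 TPM in KO and 22.7 and 14.9 TPM in EV (-1.52 ± 0.25). Among 35 nuclear genes of oxidative phosphorylation, 2 fell and 0 rose (median -0.16): Cox6a1 (-0.51 ± 0.09) and Cox4i1 (-0.35 ± 0.08). With scaling 11 of the 35 fell (median -0.31), and without EV 2 as deposited 5 fell and 1 rose. Limma called 0 of 13 mitochondrially encoded RNAs as deposited and 1 lower with scaling, and without EV 2 it called 7 lower and without EV 1 it called 1 higher. ATP6, the most abundant by the mean over the 4 libraries, had 6252 and 6716 TPM in KO and 7751 and 6673 TPM in EV. Insulin and IGF genes split, with 3 higher and 3 lower of 14 (median 0.03), and 1 higher and 3 lower with scaling; without EV 2 the number higher was 5. Irs1, the insulin receptor substrate gene, fell to 1.08 and 0.959 TPM in KO, against 4.72 and 3.76 TPM in EV (-1.37 ± 0.25). The receptor inhibitor gene Grb14 fell by 1.15 on the log2 scale.

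Mitosis genes were lower in Dicer1 KO almost without exception. Of 24 tested, 22 fell and 0 rose, as with scaling (medians -1.81 and -1.96). Summed over the list, TPM were 196 and 220.7 in KO and 1191 and 606.7 in EV, so the EV libraries differed from each other while both lay above KO. Ccnb1, the mitotic cyclin gene, had 3.65 and 4.52 TPM in KO and 59.6 and 29.3 TPM in EV (-3.08 ± 0.34, limma adjusted p = 0.0061). Cdc20, an activator of the anaphase-promoting complex, had 3.63 and 6.17 TPM in KO and 51.1 and 23.1 TPM in EV (-2.62 ± 0.41). The ubiquitin-conjugating gene Ube2c had 15.2 and 20.8 TPM in KO and 164.0 and 78.1 TPM in EV (-2.60 ± 0.36). For each, EV 1 was the highest and both EV libraries exceeded both KO libraries. Plk1, the mitotic kinase gene, had 3.98 and 3.72 TPM in KO and 34.9 and 17.1 TPM in EV (-2.39 ± 0.34). Cenpf (0.870 and 2.74 TPM in KO, 7.69 and 4.62 TPM in EV) and Bub1 (2.77 and 6.24 TPM in KO, 14.1 and 7.10 TPM in EV) did not pass. Without EV 1 the list had 21 lower, and without EV 2 it had 22.

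DNA replication genes were lower with smaller changes. Of 25 tested, 15 fell and 0 rose (median -0.98), and 17 fell with scaling (median -1.13). Uhrf1, which links replication to DNA methylation, had 9.44 and 10.0 TPM in KO and 61.7 and 24.8 TPM in EV (-1.91 ± 0.41). Prim1, the primase gene, had 6.72 and 8.20 TPM in KO and 36.0 and 25.7 TPM in EV (-1.90 ± 0.21). Rrm2, the ribonucleotide reductase subunit, had 20.4 and 23.6 TPM in KO and 80.1 and 44.8 TPM in EV, and the helicase subunit Mcm5 had 10.8 and 13.2 TPM in KO and 41.1 and 25.2 TPM in EV. Mcm7, whose intron holds the miR-106b cluster, stood at 87.7 and 80.4 TPM in KO and at 79.4 and 66.0 TPM in EV and did not pass. Without EV 2, 22 of the 25 fell.

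Promoters of the mitosis genes are shown because many cell cycle genes carry a CHR element (TTTGAA) near a CCAAT box. Searched on both strands in RefSeq promoters (250 bases before to 50 after the start, GRCm38.p6), both motifs occurred in 14 of the 20 mitosis genes with a promoter in the table, against 7.12% of all 27025 promoters and 5.33% of those of tested genes. Of the 18 called genes with a promoter, 13 held both. The matches are in capitals, written 5′ to 3′ on the gene's strand, and are letters only, not measured binding.
Cdc20, chr4:118437294-118437593, minus strand: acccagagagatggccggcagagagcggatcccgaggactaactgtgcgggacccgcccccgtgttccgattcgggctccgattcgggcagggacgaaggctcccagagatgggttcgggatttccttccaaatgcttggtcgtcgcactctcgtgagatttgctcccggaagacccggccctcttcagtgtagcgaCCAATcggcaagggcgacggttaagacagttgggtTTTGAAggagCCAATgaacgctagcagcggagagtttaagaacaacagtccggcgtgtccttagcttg
Plk1, chr7:122159185-122159484, plus strand: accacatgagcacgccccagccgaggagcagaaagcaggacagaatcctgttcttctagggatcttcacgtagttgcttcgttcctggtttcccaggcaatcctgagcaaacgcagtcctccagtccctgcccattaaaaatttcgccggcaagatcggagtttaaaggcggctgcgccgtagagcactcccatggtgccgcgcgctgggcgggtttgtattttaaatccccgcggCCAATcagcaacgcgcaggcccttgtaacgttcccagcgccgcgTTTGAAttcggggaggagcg

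Of 22 tested p53 targets, 10 rose and 0 fell (median 0.46), and 8 rose and 1 fell with scaling (median 0.31). Trp53inp1, a stress-induced cofactor of p53, had 55.6 and 53.2 TPM in KO and 18.4 and 19.3 TPM in EV (1.48 ± 0.11, limma adjusted p = 0.00342). Cdkn1a, the cell cycle inhibitor p21 and also a published miR-17 family target, had 592.1 and 530.6 TPM in KO and 339.0 and 365.4 TPM in EV (0.67 ± 0.09). The growth factor gene Gdf15 (0.82 ± 0.12) and the kinase gene Plk3 (0.83 ± 0.15) rose. Phlda3, Ccng1 and Bbc3 overlapped between the groups.

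Genes of the ATF4 and unfolded protein response were higher as a list. Of 22 tested, 13 rose and 1 fell (median 0.63), and 10 rose and 1 fell with scaling (median 0.48). Atf4 itself, the transcription factor of amino acid stress, had 814.9 and 763.3 TPM in KO and 345.2 and 406.6 TPM in EV (1.07 ± 0.11, limma adjusted p = 0.00539). Slc7a11, the cystine importer, had 54.8 and 48.9 TPM in KO and 7.39 and 8.41 TPM in EV (2.57 ± 0.14), and the pseudokinase gene Trib3 had 186.7 and 157.4 TPM in KO and 44.5 and 69.0 TPM in EV (1.61 ± 0.22). The groups were separate for each. Ddit3, which encodes the stress factor CHOP, was above EV in both KO libraries and did not pass, at 269.8 and 238.5 TPM in KO and at 195.5 and 235.5 TPM in EV. The member that fell was Atf3, at 19.1 and 16.2 TPM in KO and at 50.0 and 122.4 TPM in EV (-2.09 ± 0.40).

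Inducible heat shock genes were higher in the control libraries than in Dicer1 KO, and the control libraries differed from each other. Summed over the list, TPM were 8766 and 8865 in KO and 10392 and 17740 in EV, so EV 2 stood apart. Hspa1b, the stress-induced form of HSP70, had 90.8 and 86.8 TPM in KO and 1793 and 4746 TPM in EV (-5.02 ± 0.43, limma adjusted p = 0.00438). Its near-identical copy Hspa1a had 0.477 and 0.844 TPM in KO and 193.5 and 472.4 TPM in EV (-7.52 ± 0.42), and reads of the pair may be split between them. The small heat shock protein gene Hspb1 had 0.728 and 1.46 TPM in KO and 52.0 and 154.3 TPM in EV (-5.46 ± 0.51), and Cryab, a lens and muscle chaperone of the same family, had 36.3 and 40.9 TPM in KO and 393.6 and 966.2 TPM in EV (-3.97 ± 0.40). EV 2 was the highest library for each and both EV libraries exceeded KO. Hspa8, the constitutive form of HSP70, had 3015 and 3041 TPM in KO and 2025 and 2865 TPM in EV and did not pass, and the regulator Hsf1 had 49.9 and 49.9 TPM in KO and 49.4 and 46.6 TPM in EV. In all, 6 of 17 fell and 0 rose (median -0.39), as with scaling (median -0.54). Without EV 1 the number that fell was 12, and without EV 2 6 fell and 3 rose.

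Immediate early genes, induced within minutes by growth factors or stress, split. Of 18 tested, 7 fell and 5 rose (median -0.19), and 8 fell and 4 rose with scaling (median -0.34). Arc, an early gene best known from neurons and among the 12 largest falls, had 16.8 and 15.8 TPM in KO and 230.3 and 579.2 TPM in EV (-4.41 ± 0.41). Fos had 2.65 and 2.23 TPM in KO and 15.6 and 32.7 TPM in EV (-2.79 ± 0.35), and Egr1 had 76.5 and 77.0 TPM in KO and 268.5 and 538.6 TPM in EV (-2.29 ± 0.31). EV 2 was again the highest library for these 3 genes. The AP-1 gene Fosl2 went the other way, with 78.4 and 80.4 TPM in KO and 30.3 and 29.9 TPM in EV (1.37 ± 0.09), and Ier3 rose by 1.36 ± 0.15.

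**Figure D4:**
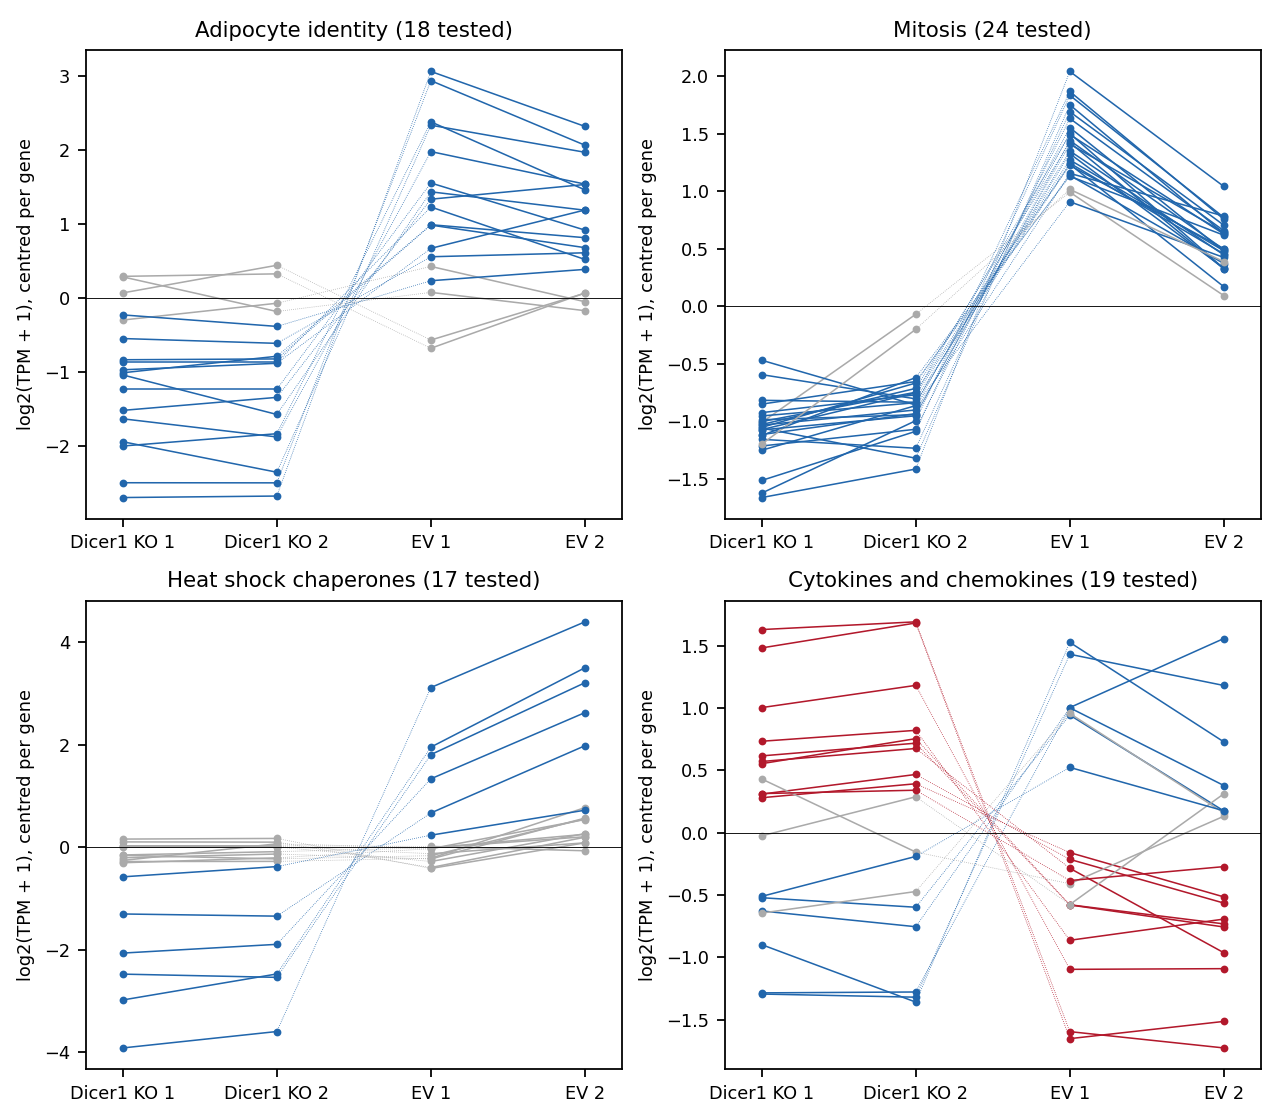
Each line is a tested member of 4 lists, with its log2(TPM + 1) centred on its own mean (y axis) in the 4 libraries (x axis, Dicer1 KO left of empty vector). Red members were called higher in KO, blue lower and grey neither, and dotted stretches only join the values of a gene. Adipocyte and mitosis genes are mostly higher in EV 1 than in EV 2, heat shock genes are higher in EV 2, and the called members lie outside both EV values in KO.

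Cytokine and chemokine genes moved in both directions, and 16 of 19 tested were called. As deposited and with scaling, 10 rose, while 6 and 7 fell (medians 0.66 and 0.50). Csf2, which encodes the myeloid growth factor GM-CSF, had 34.1 and 35.6 TPM in KO and 2.75 and 2.42 TPM in EV (3.32 ± 0.16, limma adjusted p = 0.00174). The neutrophil chemokine genes Cxcl2 (79.7 and 91.7 TPM in KO, 8.19 and 9.11 TPM in EV, 3.17 ± 0.13) and Cxcl1 (1585 and 1794 TPM in KO, 369.0 and 370.4 TPM in EV, 2.19 ± 0.09) rose. The groups were separate and narrow for all 3. Lif, a cytokine of the IL-6 family, rose by 1.56 ± 0.13, and Ccl2, a monocyte chemokine gene, had 1392 and 1494 TPM in KO and 607.0 and 536.8 TPM in EV (1.33 ± 0.10). Among those that fell, Ccl5 had 45.5 and 45.8 TPM in KO and 226.4 and 332.9 TPM in EV (-2.56 ± 0.19), Ptx3, a secreted pattern receptor gene, had 1.83 and 1.78 TPM in KO and 17.7 and 14.7 TPM in EV (-2.61 ± 0.20), and the interferon-induced chemokine gene Cxcl10 had 12.2 and 8.58 TPM in KO and 69.8 and 39.7 TPM in EV (-2.26 ± 0.30). Tnf, Csf3 and Ccl20 stayed below 1 TPM in all 4 libraries. Macrophage markers did not accompany these genes: 10 of 12 were below 1 TPM in all libraries, with Adgre1, C1qa, C1qb and Tyrobp at 0, and the sum of all 12 was 37.1 and 34.0 TPM in KO and 28.9 and 37.1 TPM in EV, nearly all from Cd68 and Cd14.

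The promoters of Cxcl1 and Cxcl2 are shown because their genes neighbour each other on chromosome 5 and rose together. A κB motif (GGGNN followed directly by TTTCC, where N is any base, searched on both strands) occurred in 5 of the 14 cytokine genes with a promoter in the table, namely Cxcl1, Cxcl2, Il6, Csf1 and Ccl9, against 1.62% of all 27025 promoters. Of those 5, Ccl9 fell and the others rose. Of the called genes without a match, Csf2, Lif and Lcn2 rose and Cxcl10, Cxcl12, Ptx3 and Saa3 fell. Capitals mark the matches, in GRCm38.p6.
Cxcl1, chr5:90890995-90891294, plus strand: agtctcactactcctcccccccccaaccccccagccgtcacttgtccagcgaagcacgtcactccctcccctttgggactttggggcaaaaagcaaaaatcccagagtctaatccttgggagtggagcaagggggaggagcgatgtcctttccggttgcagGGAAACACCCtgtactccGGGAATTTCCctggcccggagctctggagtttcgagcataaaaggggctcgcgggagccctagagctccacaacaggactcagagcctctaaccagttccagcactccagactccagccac
Cxcl2, chr5:90903649-90903948, plus strand: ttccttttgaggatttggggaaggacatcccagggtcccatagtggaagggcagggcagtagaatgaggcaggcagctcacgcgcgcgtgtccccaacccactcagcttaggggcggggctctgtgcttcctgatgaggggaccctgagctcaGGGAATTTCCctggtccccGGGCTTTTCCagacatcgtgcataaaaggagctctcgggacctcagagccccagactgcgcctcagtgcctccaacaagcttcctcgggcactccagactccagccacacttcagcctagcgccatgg
The matches lie 89 and 71 bases before the annotated start of Cxcl1 and 97 and 78 bases before that of Cxcl2, counted to the first letter of each match on the gene's strand.

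Several enzymes of prostaglandin synthesis rose, led by the inducible cyclooxygenase. Ptgs2 had 557.5 and 520.2 TPM in KO and 73.9 and 90.7 TPM in EV (2.70 ± 0.12, limma adjusted p = 0.00171). Pla2g4a, the phospholipase that releases arachidonic acid, had 85.4 and 82.3 TPM in KO and 41.3 and 42.7 TPM in EV (0.98 ± 0.09), and the prostaglandin E synthase gene Ptges rose by 0.66 ± 0.10. The constitutive cyclooxygenase gene Ptgs1 did not pass, at 120.9 and 143.1 TPM in KO and at 123.1 and 112.1 TPM in EV. Ltc4s, which encodes leukotriene C4 synthase, fell to 0.793 and 0.496 TPM in KO, against 11.3 and 9.28 TPM in EV (-2.78 ± 0.24). In all, 5 of 9 tested members rose and 1 fell (median 0.32), and 4 rose and 1 fell with scaling (median 0.16).

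Many interferon-stimulated genes fell. Of 28 tested, 11 fell and 1 rose (median -0.77), and 13 fell and 1 rose with scaling (median -0.91). Irf7, the transcription factor of the late interferon response, had 8.04 and 9.38 TPM in KO and 35.1 and 30.2 TPM in EV (-1.79 ± 0.15, limma adjusted p = 0.00438). Isg15 had 56.2 and 47.0 TPM in KO and 150.3 and 103.0 TPM in EV (-1.26 ± 0.20), and Bst2, a membrane tether of viruses, had 86.3 and 95.4 TPM in KO and 209.8 and 228.0 TPM in EV (-1.26 ± 0.10). Of the immunoproteasome genes, Psmb9 fell by 1.64 and Psmb8 had 2.00 and 1.81 TPM in KO and 7.33 and 7.16 TPM in EV. Gbp2 was the member that rose (1.14 ± 0.24). EV 2 lay nearer to KO than EV 1 did for several members, such as Irf7 and Isg15, and farther for Bst2 and Mx2.

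Collagen genes moved in both directions. Of 16 tested, 6 fell and 5 rose (median -0.29), and 9 fell and 3 rose with scaling (median -0.45). The collagen VI genes Col6a2 (141.8 and 144.7 TPM in KO, 864.6 and 672.1 TPM in EV, -2.40 ± 0.13) and Col6a1 (189.0 and 195.4 TPM in KO, 911.8 and 750.1 TPM in EV, -2.10 ± 0.11) fell the most. Col1a2 (-1.52 ± 0.18), Col3a1 (-1.30 ± 0.23) and Col1a1 (-0.70 ± 0.08), which encode fibrillar collagens I and III, fell. Col8a1 had 102.4 and 108.0 TPM in KO and 41.7 and 27.9 TPM in EV (1.59 ± 0.19), and Col12a1 had 47.8 and 42.2 TPM in KO and 17.1 and 17.2 TPM in EV (1.34 ± 0.12). The genes of fibrillar collagen V, Col5a1 (0.61 ± 0.08) and Col5a3 (0.43 ± 0.09, not called with scaling), rose. The published miR-29 targets among them were thus found in both directions.

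Of 21 other matrix genes, 8 rose and 7 fell (median 0.07), and 6 rose and 7 fell with scaling (median -0.07). Nid1, a basement membrane linker, had 1225 and 1200 TPM in KO and 366.9 and 385.5 TPM in EV (1.69 ± 0.08), whereas its relative Nid2 had 0.320 and 0.304 TPM in KO and 4.09 and 3.39 TPM in EV (-1.85 ± 0.26). The thrombospondin genes diverged as well, with Thbs1 higher (1.15 ± 0.10) and Thbs2 lower (36.5 and 37.8 TPM in KO, 169.4 and 129.7 TPM in EV, -1.97 ± 0.14). The collagen crosslinker gene Lox had 1534 and 1540 TPM in KO and 837.9 and 805.4 TPM in EV (0.90 ± 0.08), and its relative Loxl1 fell by 1.32 on the log2 scale. Mgp, an inhibitor of calcification, had 5.52 and 7.80 TPM in KO and 142.6 and 110.2 TPM in EV (-4.06 ± 0.20), and Olfml3, a secreted matrix protein gene, had 2.49 and 2.53 TPM in KO and 49.6 and 36.1 TPM in EV (-3.63 ± 0.20), both among the 12 largest falls. Among 16 metalloproteinases and inhibitors, 4 rose and 3 fell (median 0.10), as with scaling (median -0.04). Mmp3, stromelysin, had 12.4 and 11.8 TPM in KO and 1.57 and 1.64 TPM in EV (2.32 ± 0.19), and Timp3 had 1268 and 1240 TPM in KO and 585.6 and 471.6 TPM in EV (1.25 ± 0.12).

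Of 16 tested YAP and TEAD targets, the genes of a mechanically controlled pathway, 9 rose and 0 fell (median 0.49), and 6 rose and 1 fell with scaling (median 0.34). Ankrd1 had 44.1 and 49.6 TPM in KO and 8.99 and 4.43 TPM in EV (2.70 ± 0.30), and Ccn2, a matrix-associated growth factor gene, had 942.9 and 836.9 TPM in KO and 249.2 and 293.6 TPM in EV (1.71 ± 0.12). Its relative Ccn1 did not pass, at 290.2 and 287.1 TPM in KO and at 287.8 and 468.9 TPM in EV. Contractile genes split, with 4 higher and 4 lower of 16 (median -0.36), and 4 higher and 5 lower with scaling (median -0.51). Over all genes 21.5% were called higher and 9.6% lower as deposited. Actg2, smooth muscle actin of the gut, had 37.3 and 44.0 TPM in KO and 258.4 and 147.7 TPM in EV (-2.24 ± 0.27), and the nonmuscle myosin gene Myh9 had 544.2 and 557.1 TPM in KO and 248.1 and 212.0 TPM in EV (1.26 ± 0.10). Without EV 2, 8 contractile genes were lower.

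Genes of stromal identity and of other mesenchymal fates were not raised as a group. The label's cell type was checked on stromal markers: 9 of 10 reached 1 TPM in every library, with sums of 980.9 and 953.2 TPM in KO and 2046 and 1631 TPM in EV. Of the 9 tested, 5 were called lower and 1 higher in KO. Among 12 progenitor markers, 3 fell and 3 rose (median -0.08), and 5 fell and 3 rose with scaling. The pericyte marker Mcam had 0.641 and 0.152 TPM in KO and 18.3 and 7.79 TPM in EV (-3.25 ± 0.43), and Pdgfrb had 7.02 and 7.73 TPM in KO and 44.2 and 28.5 TPM in EV (-2.12 ± 0.23). Pdgfra had 45.1 and 43.4 TPM in KO and 52.1 and 49.4 TPM in EV (not called as deposited, called lower with scaling), and Nt5e, which encodes CD73, rose to 14.1 and 11.6 TPM in KO, against 2.18 and 2.84 TPM in EV (1.98 ± 0.21). Of 7 osteoblast genes, 4 fell and 0 rose, as with scaling (medians -0.98 and -1.08). The alkaline phosphatase gene Alpl had 9.04 and 9.16 TPM in KO and 69.8 and 53.7 TPM in EV (-2.62 ± 0.16), and the homeobox gene Dlx5 fell by 2.18. Of 6 chondrocyte genes, 2 fell and 1 rose, as with scaling. Col2a1 had 92.7 and 89.6 TPM in KO and 376.3 and 265.6 TPM in EV (-1.78 ± 0.17), and Prg4, the joint lubricant lubricin, had 53.3 and 68.9 TPM in KO and 21.2 and 23.8 TPM in EV (1.39 ± 0.16). Without EV 1, 4 chondrocyte genes fell. Endothelial, blood and epithelial markers each summed, as separate sets, to under 5 TPM in every library.

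OP9 cells are used to support blood cells in culture, and 11 niche factors were tested: 2 rose and 2 fell (median -0.21), and 1 rose and 5 fell with scaling. As deposited, 21.5% of all genes were called higher and 9.6% lower. Cxcl12, which retains blood stem cells, had 117.3 and 111.2 TPM in KO and 325.7 and 190.7 TPM in EV (-1.12 ± 0.25), and Bmp4 fell by 1.43 ± 0.19. Csf1, the macrophage growth factor that OP9 cells are known to lack in functional form, rose by 0.67 ± 0.14 at the RNA level. Kitl rose by 0.59 ± 0.14 as deposited and did not pass with scaling, and without EV 2 the number that fell was 4. Of 13 Wnt and anti-adipogenic genes, 6 fell and 2 rose (median -0.37), and 6 fell and 1 rose with scaling. Sfrp4, a secreted Wnt antagonist gene, had 0.384 and 0.213 TPM in KO and 7.22 and 6.19 TPM in EV (-2.57 ± 0.25), and Dkk3 fell by 1.33 ± 0.30. Notch1 had 1.18 and 0.715 TPM in KO and 3.30 and 8.69 TPM in EV (-1.74 ± 0.43, not called without EV 2), while Notch2 rose (0.84 ± 0.12). Of 8 apolipoproteins and related genes, 5 fell and 2 rose (median -1.04), and 5 fell and 0 rose with scaling. Without EV 1, 0 rose, and without EV 2, 1 rose. Clu, an extracellular chaperone, had 3.49 and 3.13 TPM in KO and 87.4 and 145.2 TPM in EV (-4.72 ± 0.25). Apoe had 10.7 and 6.21 TPM in KO and 3.14 and 3.07 TPM in EV (1.16 ± 0.28), a call lost with scaling, without EV 1 and without EV 2.

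Glycolysis and hypoxia genes were higher as deposited. Of 23 tested, 16 rose and 0 fell (median 0.57), and 6 rose and 0 fell with median-ratio scaling (median 0.41), while 15 rose and 0 fell with quantile normalization. Ndrg1, a hypoxia-responsive gene, had 96.5 and 78.8 TPM in KO and 12.5 and 26.2 TPM in EV (2.21 ± 0.33, limma adjusted p = 0.0104), and Hk2, the inducible hexokinase, had 96.7 and 89.1 TPM in KO and 28.5 and 38.7 TPM in EV (1.46 ± 0.16). Slc2a1, the basal glucose transporter, had 544.8 and 455.2 TPM in KO and 137.0 and 266.2 TPM in EV (1.38 ± 0.31), and was not called with scaling. The lysosome list had 12 higher and 0 lower of 22 (median 0.43), 4 higher and 0 lower with median-ratio scaling (median 0.27), and 6 higher and 1 lower with quantile normalization. Ctsk, a collagen-degrading protease, had 15.3 and 18.3 TPM in KO and 6.45 and 5.87 TPM in EV (1.31 ± 0.17), Npc1, the cholesterol exporter of lysosomes, rose by 1.24 ± 0.17 and Ctsl by 1.23 ± 0.14.

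Cytosolic ribosomal protein genes were lower by small amounts. Of 34 tested, 22 fell and 0 rose (median -0.42), and 23 fell with scaling (median -0.58). Ribosomal protein genes have many near-identical pseudogenes, so reads may be split between rows. Summed over the list, TPM were 54710 and 55160 in KO and 70639 and 76430 in EV. Rpl10a had 802.3 and 828.9 TPM in KO and 1342 and 1455 TPM in EV (-0.78 ± 0.09). Translation factors went mostly the other way, with 10 higher and 3 lower of 20 (median 0.31), and 5 higher and 4 lower with scaling (median 0.16). Eif4ebp1, which restrains cap-dependent initiation, had 374.8 and 352.4 TPM in KO and 158.6 and 212.2 TPM in EV (0.98 ± 0.15), Eif1 rose by 0.75 ± 0.10 and the elongation factor subunit Eef1b2 fell by 0.45 on the log2 scale. Proteasome subunits were near the background, with 5 higher and 1 lower of 23 as deposited (median 0.04) and 0 higher and 4 lower with scaling (median -0.12). Psma3, the largest of those rises, changed by 0.41 ± 0.10. Without EV 1, 3 proteasome genes were higher.

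**Figure D5:**
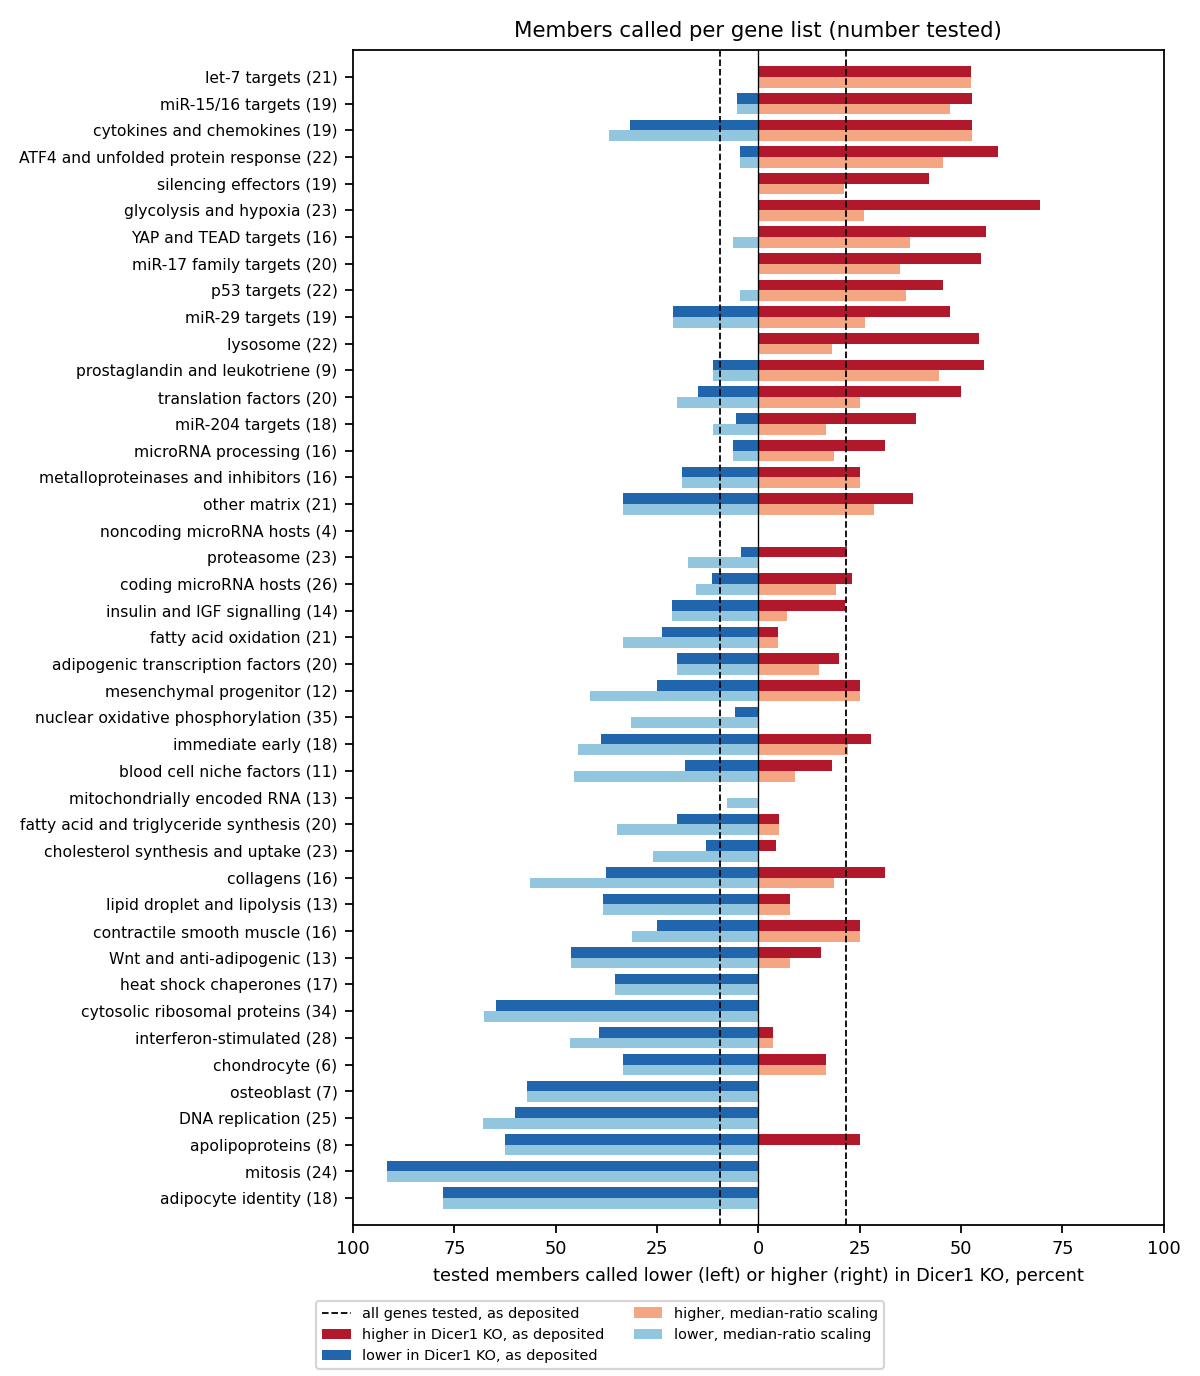
Bars give the percent of tested members of each list called lower (left of 0) or higher (right of 0) in Dicer1 KO, as deposited (dark) and with median-ratio scaling (pale), with the number tested in brackets and lists ordered by median change. Dashed lines mark the shares for all genes tested, 9.6% lower and 21.5% higher. Mitosis and adipocyte identity reach the furthest to the left under both, while the right-hand bars of glycolysis, lysosome and translation factor genes shorten with scaling.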

How the data were processed

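The authors deposited TPM per gene for the 4 libraries. The submitters' processing notes name kallisto 0.48.0 (transcript index and build: not given in the sources used here). The table held 55357 rows with values. The 22339 rows without a symbol (4.25% to 6.22% of TPM) were left out and rows sharing a symbol summed. The Drosha table was not used. Genes with at least 1 TPM in at least 2 libraries were tested in limma 3.58.1 (R 4.3.3) with a mean trend on log2(TPM + 1), after a check on simulated data. Median-ratio scaling divides each library by a size factor (1.07 and 1.05 for KO, 0.988 and 0.917 for EV). Other alternatives were pseudocounts of 0.1 and 0.5, no filter, a minimum of 5 TPM, quantile normalization, no mean trend, the replicate number as a block, and leaving out each library. The 43 lists, the named genes and the target lists were chosen with earlier results of these data known, and lists are given as counts and medians without a test. Named genes were Dicer1, Drosha, Dgcr8, Trpm3 and Smc4, the 12 largest rises and falls among called genes with separate groups and a mean of at least 5 TPM in the higher group, without gene-model or small RNA names, and up to 4 of the largest called members of each list (2 most abundant where none was called). Others named were chosen after their values were seen. RefSeq sequences are of GRCm38.p6, and 3′ UTRs are the longest annotated per gene (GENCODE, GRCm38). Some items are not reported here.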

Additional observations from a re-analysis of the deposited data

How the results depend on the processing

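As deposited, limma called 2627 genes higher and 1175 lower in Dicer1 KO. The count higher was 1583 with median-ratio scaling and 1611 with quantile normalization. With no filter on low values it was 1362, with 485 lower, among 20435 genes tested. Leaving out 1 library gave 0 to 2922 higher and 0 to 1453 lower. The low ends of these ranges came without KO 1 and without KO 2. In those fits the spread behind each p-value came from the EV pair alone. In the fits without EV 1 or EV 2, the spread came from the KO pair alone. The EV pair differed by a median of 0.218 on the log2 scale, against 0.118 for the KO pair. The part of this difference in the counts of these fits was not tested. With a minimum of 5 TPM, a pseudocount of 0.1 or 0.5 and no mean trend, both counts stayed within 1.5 times. Same-numbered libraries did not deviate together (correlation of deviations -0.0921), so numbers were not taken as pairs; with the replicate block 2066 genes were higher and 979 lower. Dicer1 did not pass under any of the 12 alternatives. Of 174 named genes tested, 15 lost the call with median-ratio scaling, 51 with no filter, 19 without the mean trend and 9 with the block. With quantile normalization, 16 lost the call and 1 gained it. Without 1 library, 3 uncalled genes changed sign: Dgcr8 ranged from -0.18 to 0.58, Mir100hg from -0.38 to 0.38 (0.0044 without KO 2) and COX2 from -0.20 to 0.12 (0.0071 without KO 1). Depth is unknown, so how far it limits low genes could not be given.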

Other observations

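The groups in this part were put together after the values were seen, and no test was made of them. Over all genes tested, 21.5% were called higher and 9.6% lower. Genes that the factor NRF2 is known to control, which handle oxidative stress, were mostly higher: 10 of 16 rose and 1 fell as deposited (median 0.79, against 0.15 for all genes), and 8 rose and 1 fell with median-ratio scaling. Gclm, a subunit of the enzyme that limits glutathione synthesis, had 361.9 and 342.8 TPM in Dicer1 KO and 125.0 and 199.0 TPM in EV (1.15 ± 0.22), and the ferritin gene Fth1 had 9305 and 10723 TPM in KO and 5849 and 5587 TPM in EV (0.81 ± 0.12). Nqo1, a classical member, had 206.3 and 216.8 TPM in KO and 233.6 and 192.4 TPM in EV and did not pass. A list of NF-κB regulators and targets, which counts Clec4e and Clec4d given above, had 10 higher and 0 lower of 14, and 8 higher and 1 lower with scaling. Nfkbia, which encodes the inhibitor IκBα, rose by 0.81 ± 0.08, and Tnfaip3, the inhibitor A20, rose by 1.04 ± 0.09, whereas Icam1 had 6.17 and 7.23 TPM in KO and 8.29 and 7.72 TPM in EV and did not pass.

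Genes often used to describe senescent cells and their secretions gave 16 higher and 2 lower of 21 (15 and 2 with scaling), a count that includes Cdkn1a, Gdf15 and the chemokines already given. The growth factor gene Ereg had 330.4 and 322.7 TPM in KO and 77.3 and 80.5 TPM in EV (2.04 ± 0.08), and the cytokine gene Il1a had 13.5 and 17.8 TPM in KO and 2.96 and 2.59 TPM in EV (2.13 ± 0.21). The members that fell were Lmnb1, a nuclear lamina gene (-1.20 ± 0.26), and Hmgb2 (-1.23 ± 0.21). Cdkn2a, which encodes p16 and ARF, had 1.11 and 1.36 TPM in KO and 0.810 and 0.761 TPM in EV and did not pass.

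Serpins moved in both directions, with 7 higher and 4 lower of 13 (6 and 3 with scaling). Serpinb9e had 347.2 and 352.0 TPM in KO and 71.3 and 74.8 TPM in EV (2.24 ± 0.08), while Serpinf1, an antiangiogenic factor gene, had 228.7 and 212.3 TPM in KO and 824.4 and 743.0 TPM in EV (-1.82 ± 0.09). Guidance genes gave 4 higher and 3 lower of 12, with the semaphorin receptor gene Nrp2 at 29.6 and 32.4 TPM in KO and 5.18 and 3.97 TPM in EV (2.53 ± 0.18) and its relative Nrp1 lower (-0.60 ± 0.17). Of 48 replication-dependent histone genes tested, 5 rose and 9 fell (3 and 9 with scaling). Of those that fell, H1f5, H2ac10, H2ac22, H2bc12, H2bc14 and H3c8 were below 1 TPM in both KO libraries. They passed the filter only through EV, so only a fall was possible for them. Of 1184 rows named as microRNA genes, 65 were tested, and 10 were higher and 8 lower, near the shares of all genes. Some of these passed the filter only through the group where they are high, such as Mir6904, at 22.0 and 9.01 TPM in KO and listed at 0 in EV, and Mir145a, listed at 0 in KO and at 8.77 and 5.86 TPM in EV. Of 34 small nucleolar RNA rows tested, 6 were higher and 1 lower, no more than the shares of all genes.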
